A study of Mus musculus with 5 samples.

Results

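The 39 Hox genes of the mouse, which stand in 4 clusters, were examined for peaks of ATRX in cultured mouse neurons. Members were the protein-coding genes whose symbol joins Hox, a cluster letter from a to d and a number, and they are 39 of the 21887 protein-coding genes on chromosomes 1 to 19, X and Y. Chromatin immunoprecipitation and sequencing (ChIP-seq) with an ATRX antibody gave 1 library for each of 4 groups, so the values carry no replicate error and groups were compared without p-values. All neurons were taken at E15.5-17.5, in days of embryonic life, from the C57BL6/J strain and were infected with lentivirus on day 5 in vitro. The groups were neurons with TBC1D3 at day 14 in vitro (DIV14), neurons with MICAL1-M1 at DIV14, neurons with mCherry at DIV7 and neurons with mCherry at DIV14, taken as the control. TBC1D3 is a gene of humans and other hominoids that mice lack, MICAL1 is an enzyme that oxidises actin (what M1 stands for is not given in the sources used here), and mCherry is a fluorescent protein. The labels give neither the brain region nor the promoter of the virus, and peak lists hold no expression against which the cell type could be checked. Inside the MICAL1-M1 list the peak names carry the stem M2, and the group was taken from the label.

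ATRX is a chromatin remodeller that, with the histone chaperone DAXX, places a histone variant in heterochromatin and other repressed DNA. Hox genes encode homeodomain transcription factors that tell cells their position along the head to tail axis. Within a cluster the genes lie in the order of their activity: low-numbered anterior genes act in the hindbrain and neck region, and high-numbered posterior genes in the lumbar region, tail, limbs and genital tract. In the forebrain the clusters are largely silent and carry Polycomb repression, while neurons of the hindbrain and spinal cord keep part of them active. A peak in a culture cannot tell binding in few cells from weak binding in many.

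Hox genes seldom had an ATRX summit in control neurons, and more of them had one with TBC1D3 and at DIV7. A gene was called occupied when the highest point of a peak, its summit, lay within 1 kb of either gene end. With TBC1D3 16 of 39 Hox genes were occupied (41.0%, 95% exact binomial interval 25.6 to 57.9), with MICAL1-M1 5 (12.8%, 4.3 to 27.4), in mCherry neurons at DIV7 14 (35.9%, 21.2 to 52.8) and in the mCherry control at DIV14 3 (7.69%, 1.62 to 20.9). Over all protein-coding genes the occupied share was 33.4% with TBC1D3, 38.7% with MICAL1-M1, 33.2% at DIV7 and 42.3% in the control. The Hox shares of TBC1D3 and DIV7 neurons thus lay near the share of all genes in the same list, and those of MICAL1-M1 and control neurons lay below it. The intervals cover counting error only and treat genes as independent, although neighbouring Hox genes can share a peak. Counted as peaks, there were 18 at Hox gene ends with TBC1D3, 5 with MICAL1-M1, 20 at DIV7 and 2 in the control.

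**Figure D1:**
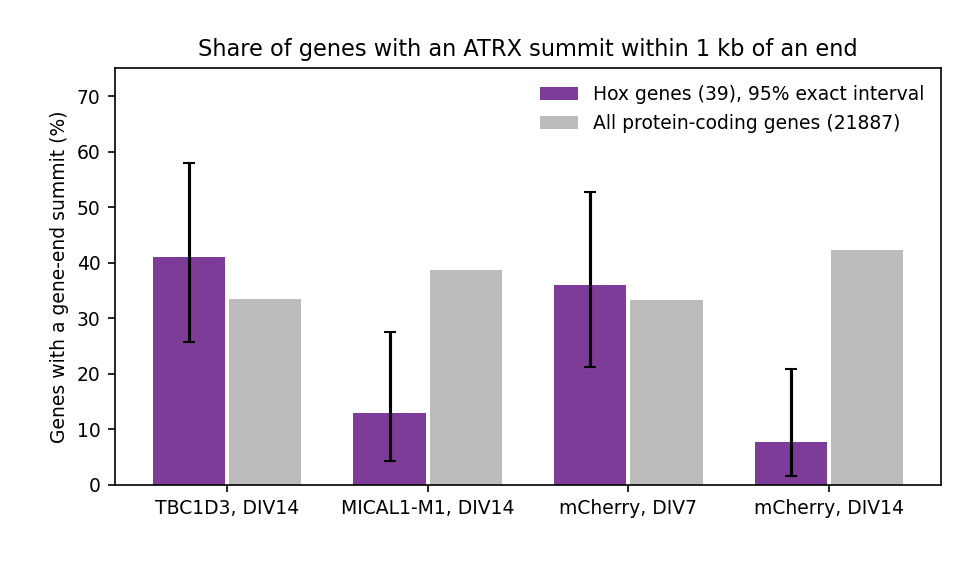
Bars give the percentage of genes with an ATRX summit within 1 kb of either end, for the 39 Hox genes (purple, with 95% exact binomial intervals) and for all 21887 protein-coding genes (grey), in each library. The Hox bars reach 41.0% with TBC1D3 and 35.9% at DIV7, against 7.69% in the DIV14 control, while the grey bars run from 33.2% to 42.3%.

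These peaks were weak. None of the peaks at Hox gene ends had a q of at most 0.05, the peak caller's p corrected over the genome, and all but 1 had a q of 1. The exception was a MICAL1-M1 peak at Hoxa7 with a q of 0.732. The fold of each peak is the authors' ratio of the pileup at the summit to the local background. The values fit this ratio with 1 added to both terms, so a fold is lower than the plain ratio. Folds ran from 1.79 to 3.16 with TBC1D3, from 1.66 to 3.03 with MICAL1-M1, from 1.73 to 3.04 at DIV7 and from 1.64 to 1.83 in the control. The fragments at the summit could be worked out from fold and p. They numbered 3 to 6 with TBC1D3, 5 to 10 with MICAL1-M1, 4 to 6 at DIV7 and 9 in both control peaks, over a genome background of 1.22, 2.61, 1.28 and 3.56 fragments in that order of libraries. A summit at a single Hox gene thus rests on few fragments, and the background differs between lists. List lengths differ too, with 199059 peaks for TBC1D3, 141387 for MICAL1-M1, 213982 for DIV7 and 96670 for the control. With each list reduced to its 96670 peaks of smallest p, 8 of 39 Hox genes were occupied with TBC1D3 (20.5%, against 19.5% of all genes), 3 with MICAL1-M1 (7.69%, against 33.6%), 8 at DIV7 (20.5%, against 18.0%) and 3 in the control (7.69%, against 42.3%).

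**Figure D2:**
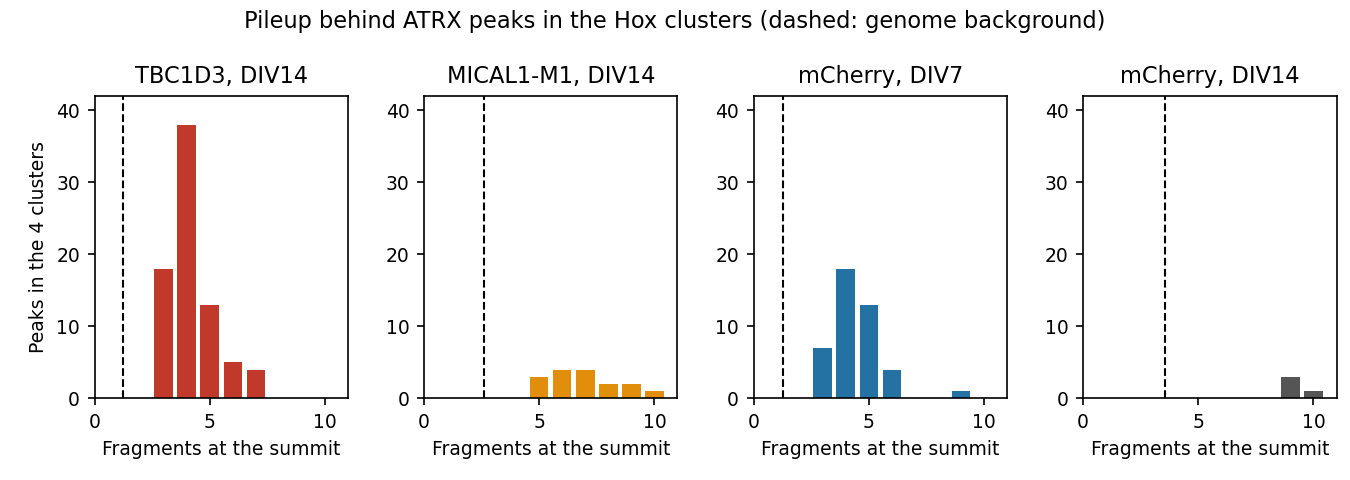
Each panel counts the peaks with a summit inside the 4 Hox clusters (y axis) by the number of fragments at the summit (x axis) for 1 library, and the dashed line marks the library's genome background. Most TBC1D3 and DIV7 peaks stand on 3 to 5 fragments, and the 4 control peaks on 9 or 10.

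Promoters that held a summit give the sequence at a few of these peaks. Promoter sequences from RefSeq (GRCm38.p6) were at hand for 22 of the 39 genes, with 24 start sites, so a comparison of base composition or motifs over the whole set is void. Of the 24 stretches of 250 bases before a start, 5 held a summit. The 3 that end at the outermost start of the gene are shown 5' to 3', with capitals for the bases within 15 of the summit. Hoxd13 and Hoxd9 held their summit at DIV7 and Hoxa7 with MICAL1-M1. The DIV7 peaks covered all 250 bases of the Hoxd13 stretch and 41 of the 250 bases of the Hoxd9 stretch.
Hoxd13, chr2:74667975-74668224, plus strand: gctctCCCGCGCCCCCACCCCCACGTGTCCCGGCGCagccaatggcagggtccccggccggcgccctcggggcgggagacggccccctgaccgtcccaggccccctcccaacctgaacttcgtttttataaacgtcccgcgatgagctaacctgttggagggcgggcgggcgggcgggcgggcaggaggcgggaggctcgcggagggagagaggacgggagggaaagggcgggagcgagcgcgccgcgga
Hoxd9, chr2:74697513-74697762, plus strand: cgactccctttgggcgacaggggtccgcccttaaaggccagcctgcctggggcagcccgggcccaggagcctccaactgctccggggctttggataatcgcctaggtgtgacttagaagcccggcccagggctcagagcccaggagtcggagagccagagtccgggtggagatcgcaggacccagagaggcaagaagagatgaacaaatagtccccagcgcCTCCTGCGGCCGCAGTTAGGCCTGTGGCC
Hoxa7, chr6:52218574-52218823, minus strand: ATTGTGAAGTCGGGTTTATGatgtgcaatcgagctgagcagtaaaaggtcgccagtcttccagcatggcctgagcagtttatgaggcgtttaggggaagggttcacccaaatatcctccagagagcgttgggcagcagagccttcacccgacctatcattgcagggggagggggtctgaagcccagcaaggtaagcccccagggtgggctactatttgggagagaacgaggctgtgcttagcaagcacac
Hoxa7 was the promoter of the 24 that peaks of 2 lists covered, those of MICAL1-M1 (154 of the 250 bases) and of DIV7 (all 250 bases). The Hoxd13 stretch matched the G-quadruplex pattern, 4 runs of at least 3 G with 1 to 7 bases between runs on either strand, a DNA structure that ATRX is known to bind. Matches can overlap, and 16.7% of all promoters of this length hold one. Of the 24 Hox stretches 6 matched it, and the other 5, of Hoxd12, Hoxa13, Hoxa6, Hoxa10 and Hoxb1, held no summit in any list. A control peak with its summit outside covered 116 of the 250 bases of this Hoxa10 stretch, the one at the outermost start. Hoxd9 and Hoxa7 held no match, and none of the 3 held TGATNNAT, the joint site of HOX and PBX proteins, which 7.69% of all promoters hold on either strand. The other summits lay at start sites inside the gene spans of Hoxd11 and Hoxa10, both with TBC1D3, and neither stretch held a G-quadruplex match. This Hoxd11 stretch held 1 TGATNNAT match, and this Hoxa10 stretch held none. Of the 24 Hox stretches 4 held TGATNNAT.

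Anterior genes (paralog groups 1 to 4) were occupied in 4 of 12 cases with TBC1D3, 0 with MICAL1-M1, 3 at DIV7 and 0 in the control. Beside this count and those of the central and posterior genes below stand 33.4%, 38.7%, 33.2% and 42.3% of all protein-coding genes in that order. Hoxa2, which patterns the hindbrain and the second branchial arch, had a peak of 2.26-fold on 4 fragments with TBC1D3 and one of 2.82-fold on 6 fragments at DIV7, and none with MICAL1-M1 or in the control. Both summits lay inside the gene, the TBC1D3 summit 942 bp from its 3' end and the DIV7 summit 557 bp from its start, so these were different peaks. Hoxd4 was likewise occupied with TBC1D3 (2.25-fold, 73 bp past its 3' end) and at DIV7 (2.63-fold, 758 bp before its start). Hoxd1, which in mice shapes the wiring of pain-sensing neurons, held the highest DIV7 fold at a Hox gene end, 3.04-fold on 6 fragments, and a second DIV7 peak of 2.63-fold. Hoxa4 (2.26-fold) and Hoxd3 (2.11-fold) were occupied with TBC1D3 alone of the 4 lists. Hoxb1, Hoxb2, Hoxa3, Hoxb3, Hoxb4 and Hoxc4 had no gene-end summit in any list.

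Central genes (groups 5 to 8) were occupied in 5 of 11 cases with TBC1D3, 4 with MICAL1-M1, 4 at DIV7 and 0 in the control. Hoxa5, Hoxa6 and Hoxa7, neighbours in the Hoxa cluster, were the Hox genes occupied in 3 lists, and no Hox gene was occupied in all 4. Of the 39 genes, 15 (38.5%) were occupied in 0 lists, 13 (33.3%) in 1, 8 (20.5%) in 2 and 3 (7.69%) in 3. Over all protein-coding genes 27.0% were occupied in 0 lists, 26.9% in 1, 23.7% in 2, 16.1% in 3 and 6.24% in all 4. Hoxa5, needed for lung and neck development, had 2.70-fold with TBC1D3 on 5 fragments, 2.09-fold with MICAL1-M1 on 7 and 2.63-fold at DIV7 on 5, and no peak in the control. The TBC1D3 peak lies inside Hoxa5 and the MICAL1-M1 peak inside Hoxa6, and both were within 1 kb of an end of either gene, so they also count for Hoxa6. Hoxa6 had a DIV7 peak of its own at 1.88-fold. Hoxa7 had 2.65-fold with TBC1D3, peaks of 3.03-fold and 2.77-fold with MICAL1-M1 on 10 and 9 fragments, peaks of 2.63-fold and 1.99-fold at DIV7, and none in the control. The 3.03-fold peak on chromosome 6 from 52216226 to 52216696 was the strongest MICAL1-M1 peak at a Hox gene end, and 4.46% of all MICAL1-M1 peaks had a fold at least as high. It overlapped the TBC1D3 peak of Hoxa7, and the 2.77-fold peak at the Hoxa7 start overlapped a DIV7 peak. Hoxb6 was occupied with MICAL1-M1 (1.66-fold) and at DIV7 (1.73-fold), at opposite ends. Hoxb5 (1.80-fold) and Hoxc8 (1.79-fold), a gene of brachial motor neurons, were occupied with TBC1D3 on 3 fragments each. Hoxc5, Hoxc6, Hoxb7, Hoxb8 and Hoxd8 had no gene-end summit in any list.

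Posterior genes (groups 9 to 13) were occupied in 7 of 16 cases with TBC1D3, 1 with MICAL1-M1, 7 at DIV7 and 3 in the control. All 3 occupied control genes were posterior, but they rest on 2 peaks, and 16 of the 39 Hox genes are posterior. Whether anterior, central and posterior genes differed was not tested. Hoxa10 and Hoxa11, needed for the uterus and the limbs, shared 1 control peak between them of 1.64-fold on 9 fragments, on chromosome 6 from 52240989 to 52241353, where the caller's background was 5.09 fragments. At DIV7 Hoxa10 had 2 peaks and Hoxa11 3, at 1.83-fold to 2.63-fold, and neither gene was occupied with TBC1D3 or MICAL1-M1. Hoxd12 had 2.71-fold with TBC1D3, 835 bp inside its start, and 1.83-fold in the control at its 3' end, so it was occupied in both without a shared peak. Hoxd11, a limb gene, held the highest TBC1D3 fold at a Hox gene end, 3.16-fold on 6 fragments, with 5.88% of all TBC1D3 peaks at least as high; it had a second TBC1D3 peak of 1.98-fold and a DIV7 peak of 2.39-fold. Hoxa9 had 2.20-fold with TBC1D3 and 1.99-fold at DIV7. Hoxb9 (2.71-fold), Hoxc10 (3 peaks of 2.26-fold each), Hoxc12 (1.91-fold) and Hoxa13, a digit gene (1.80-fold), were occupied with TBC1D3 alone. Hoxd13, also a digit gene (2.19-fold), Hoxd9 (2.19-fold) and Hoxb13, a gene of the tail end (2.06-fold and 1.99-fold), were occupied at DIV7 alone. Hoxd10 was occupied with MICAL1-M1 alone (1.91-fold). Hoxc9, Hoxc11 and Hoxc13 had no gene-end summit in any list.

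**Figure D3:**
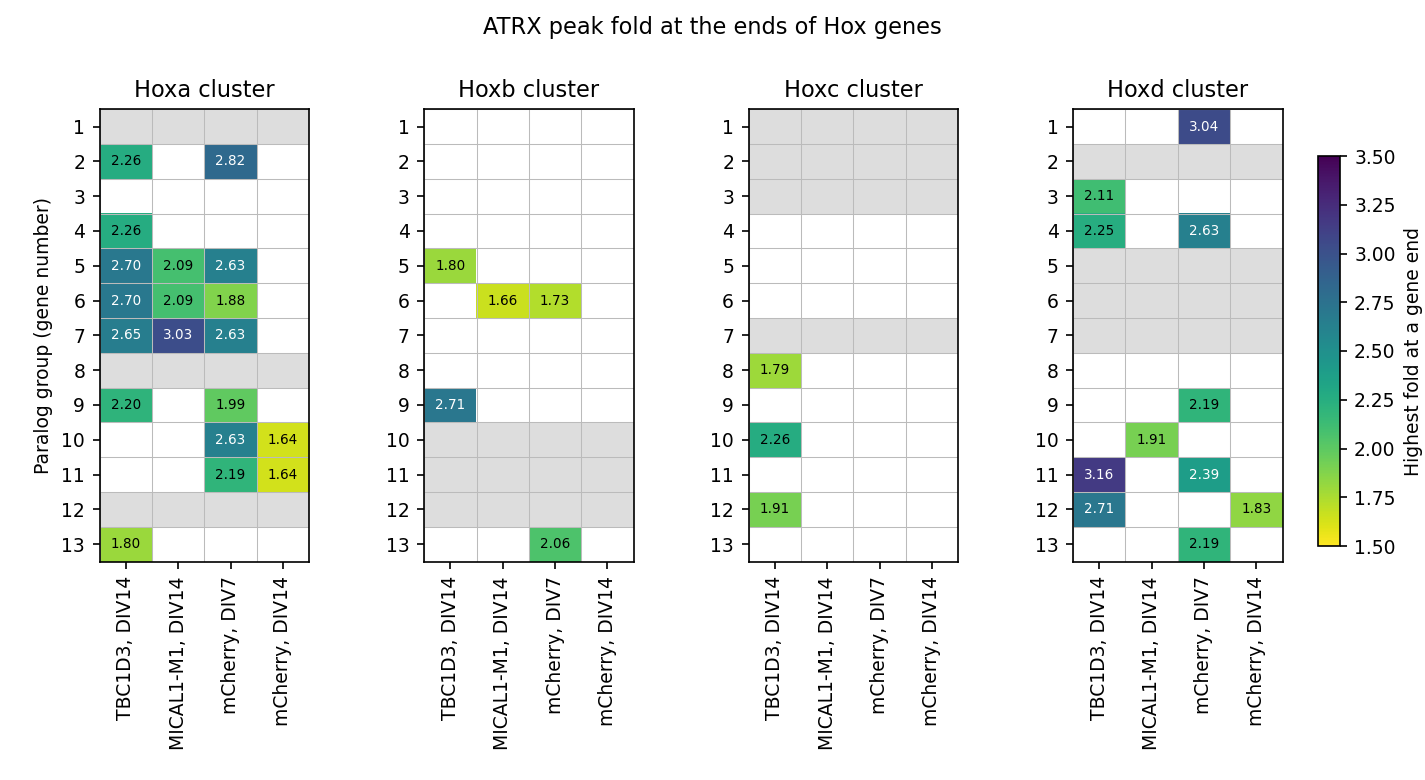
Each cell gives the highest fold over local background of a peak with its summit within 1 kb of an end of the gene, for the 4 libraries (columns) and the genes of each cluster by number (rows); white cells had no such peak and grey cells have no gene or are not shown. Hoxa5, Hoxa6 and Hoxa7 are filled in TBC1D3, MICAL1-M1 and DIV7 neurons, and the control column holds 3 filled cells.

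By cluster, 7 of 11 Hoxa genes were occupied with TBC1D3, 3 with MICAL1-M1, 7 at DIV7 and 2 in the control. Of 9 Hoxd genes, 4 were occupied with TBC1D3, 1 with MICAL1-M1, 5 at DIV7 and 1 in the control. Of 10 Hoxb genes, 2 were occupied with TBC1D3, 1 with MICAL1-M1, 2 at DIV7 and 0 in the control. The 9 Hoxc genes were occupied in 3 cases with TBC1D3 and in 0 cases in each of the other lists. Of all protein-coding genes 33.4% were occupied with TBC1D3, 38.7% with MICAL1-M1, 33.2% at DIV7 and 42.3% in the control. Whether clusters differed from these shares or from each other was not tested.

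Against the control, 15 Hox genes were gained and 2 lost with TBC1D3, 5 gained and 3 lost with MICAL1-M1, and 12 gained and 1 lost at DIV7. Gained here means occupied in the named list and not in the control, and lost the reverse; neither stands for a tested change, and the 3 comparisons share the control list. Genes occupied in both lists numbered 1 with TBC1D3, 0 with MICAL1-M1 and 2 at DIV7. Of all coding genes TBC1D3 gained 15.6%, lost 24.4% and had 17.9% occupied in both lists. MICAL1-M1 gained 11.6%, lost 15.2% and shared 27.1%, and DIV7 gained 15.7%, lost 24.7% and shared 17.5%. Few Hox genes could be lost, since 36 of 39 were free in the control. Of these 36, TBC1D3 had 15 (41.7%), MICAL1-M1 5 (13.9%) and DIV7 12 (33.3%) occupied, against 26.9%, 20.1% and 27.1% of all genes free in the control. The lost genes were Hoxa10 and Hoxa11 with TBC1D3, these and Hoxd12 with MICAL1-M1, and Hoxd12 at DIV7. TBC1D3 summits did lie inside Hoxa10, 1006 bp from an end, and inside Hoxa11, 1113 bp from an end. Both fell just beyond the 1 kb limit. TBC1D3 and DIV7 neurons had 7 occupied Hox genes in common. These were 43.8% of the 16 TBC1D3 genes and 7 of the 14 DIV7 genes, against 40.6% and 40.9% over all genes. At the ends of these 7 genes no DIV7 peak overlapped a TBC1D3 peak, so the genes were shared and the peaks were not.

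Across whole clusters TBC1D3 neurons had the most summits of the 4 lists and control neurons the fewest. The Hoxa cluster spans 105.5 kb on chromosome 6 from 52155367 to 52260880, Hoxb 173.9 kb on chromosome 11 from 96194316 to 96368254, Hoxc 115.7 kb on chromosome 15 from 102921131 to 103036856 and Hoxd 96.9 kb on chromosome 2 from 74668225 to 74765142 (GRCm38). In these 492.1 kb lay 78 summits with TBC1D3, 16 with MICAL1-M1, 43 at DIV7 and 4 in the control. Per 100 kb this was 15.9 with TBC1D3 (95% exact Poisson interval 12.5 to 19.8), 3.25 with MICAL1-M1 (1.86 to 5.28), 8.74 at DIV7 (6.32 to 11.8) and 0.813 in the control (0.221 to 2.08). Set against each list's own density on the same chromosomes, the clusters held 1.97 times as many summits with TBC1D3, 0.566 times with MICAL1-M1, 1.05 times at DIV7 and 0.2 times in the control. Lists of equal size gave 1.88, 0.514, 0.866 and 0.2 times in that order of libraries. Inside the windows at Hox gene ends the density was 12.1 summits per 100 kb with TBC1D3, 3.35 with MICAL1-M1, 13.4 at DIV7 and 1.34 in the control, against 10.2, 11.6, 10.1 and 12.1 in the windows of all protein-coding genes.

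With TBC1D3 each cluster was denser than its chromosome, with 16 summits in Hoxa (1.93 times the chromosome density), 29 in Hoxb (2.04 times), 20 in Hoxc (2.11 times) and 13 in Hoxd (1.69 times). With MICAL1-M1 Hoxa held 6 summits (0.987 times), Hoxb 4 (0.426 times), Hoxc 1 (0.146 times) and Hoxd 5 (0.834 times). At DIV7 Hoxa stood out among the clusters with 19 summits (2.1 times), beside 9 in Hoxb (0.651 times), 6 in Hoxc (0.592 times) and 9 in Hoxd (1.12 times). In the control Hoxa held 1 summit (0.235 times) and Hoxd 3 (0.716 times), and Hoxb and Hoxc held 0. Only the TBC1D3 list was above its chromosome density in all 4 clusters, and the differences between clusters were not tested.

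**Figure D4:**
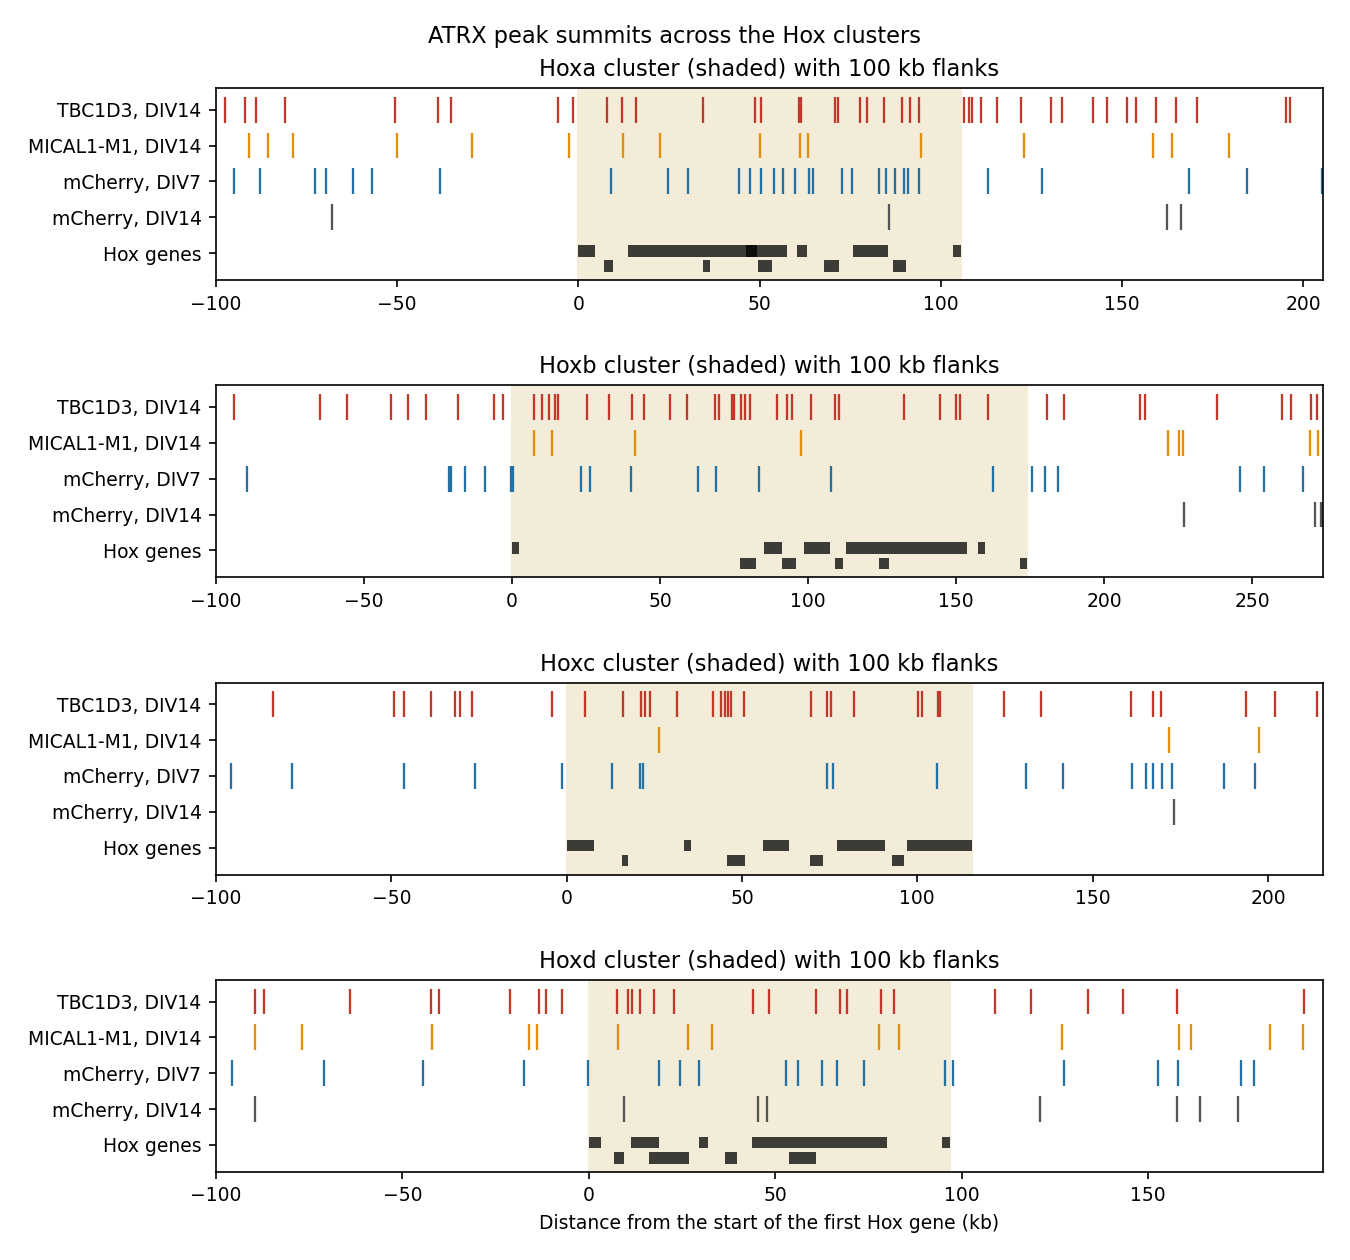
Vertical ticks mark ATRX summits along each Hox cluster and its flanks for the 4 libraries, with distance from the start of the first Hox gene in kb on the x axis and Hox gene spans as black bars. TBC1D3 ticks are dense in all 4 shaded clusters (78 summits), DIV7 ticks are dense in Hoxa (19), and the control has 4 ticks in the shaded areas.

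The 100 kb flanks on both sides of each cluster, 800 kb in all, held 75 summits with TBC1D3, 27 with MICAL1-M1, 49 at DIV7 and 13 in the control. These were 1.17, 0.581, 0.73 and 0.397 times the chromosome density in that order. Single flanks varied: in the control the flank beyond Hoxb1 stood at 1.03 times its chromosome and that beyond Hoxd1 at 0.925 times, with 4 summits each, and the other 6 control flanks held 0 to 2. With TBC1D3 the flank beyond Hoxa13 held 17 summits (2.16 times), denser than the Hoxa cluster itself. Of all summits in clusters and flanks, 1 had a q of at most 0.05, a control peak of 3.29-fold on 14 fragments beyond Hoxd1 (q = 0.047). A list of 11 protein-coding genes next to the clusters was occupied in 4 cases with TBC1D3, 7 with MICAL1-M1, 3 at DIV7 and 8 in the control, beside 33.4%, 38.7%, 33.2% and 42.3% of all protein-coding genes. Among them Mtx2, a mitochondrial import gene beyond Hoxd1, and Skap1, an adaptor gene beyond Hoxb1, were occupied in every list. By the strongest peak of each of these genes, only Calcoco1, beyond Hoxc13 and outside the flank, reached a q of at most 0.05. It had 3.65-fold on 18 fragments in the control (q = 0.00369) and no summit in the other lists. Lnpk, an endoplasmic reticulum gene beyond Hoxd13, had 4.06-fold with TBC1D3, 3.32-fold with MICAL1-M1 and 2.41-fold in the control. Evx2, a homeobox gene next to Hoxd13, had 3.56-fold with TBC1D3 and 2.22-fold with MICAL1-M1, and no summit in the other lists.

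**Figure D5:**
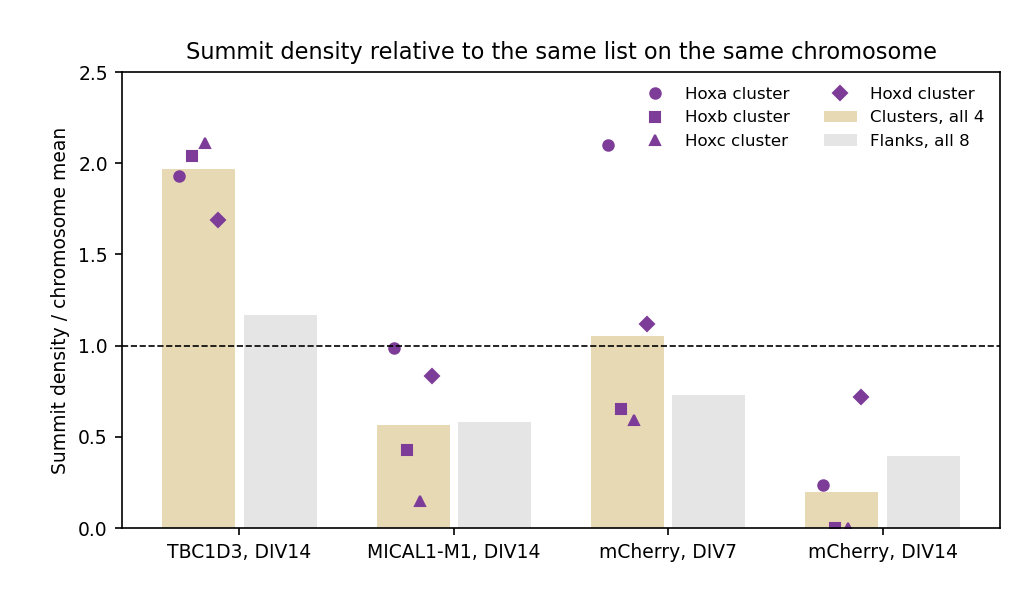
Bars give the summit density of the 4 clusters together (sand) and of their 8 flanks (light grey) divided by the density of the same list on the same chromosomes, and symbols give single clusters; the dashed line marks the chromosome mean. The cluster bars stand at 1.97 with TBC1D3, 0.566 with MICAL1-M1, 1.05 at DIV7 and 0.2 in the control.

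With TBC1D3, with MICAL1-M1 and at DIV7 most summits inside the clusters lay away from gene ends. The windows at Hox gene ends cover 149.1 kb, in part outside the clusters, which span 492.1 kb. Evenly spread summits would thus also lie mostly away from gene ends, and a difference from an even spread was not tested. Of 78 TBC1D3 summits 17 lay within 1 kb of a Hox gene end, 33 elsewhere in a Hox gene span and 28 between Hox genes. Of 16 MICAL1-M1 summits the numbers were 5, 3 and 8, of 43 DIV7 summits 17, 12 and 14, and of the 4 control summits 2, 2 and 0. The wide gap of 74.7 kb between Hoxb13 and Hoxb9 held 15 TBC1D3 summits, 3 of MICAL1-M1, 5 of DIV7 and 0 of the control. The long span of Hoxd3 (36.3 kb) held 6 summits with TBC1D3, 1 with MICAL1-M1, 5 at DIV7 and 2 in the control, and that of Hoxa3 (44.0 kb) 4, 2, 7 and 0. The strongest DIV7 peak of the clusters lay in the Hoxa3 span, on chromosome 6 from 52179927 to 52180251, with 3.89-fold on 9 fragments and a q of 0.118. The strongest TBC1D3 peaks of the clusters, 4 in number, had 3.61-fold on 7 fragments and a q of 0.457; they lay in the spans of Hoxb9, Hoxb5 and Hoxc4 and beside Mir196a-1.

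Of 11 RNA genes of the clusters, 3 were occupied with TBC1D3, 1 with MICAL1-M1, 2 at DIV7 and 0 in the control. Of all 13955 lncRNA and miRNA genes, 32.6% were occupied with TBC1D3, 28.6% with MICAL1-M1, 32.9% at DIV7 and 25.5% in the control; with 11 genes no difference from these shares was tested. Hotair, a long RNA of the Hoxc cluster, had 3.11-fold with TBC1D3 and 2.22-fold with MICAL1-M1. Hottip, a long RNA next to Hoxa13, had 2.38-fold with TBC1D3 and 3.07-fold at DIV7. The other occupied genes were 2 copies of the miR-196 family, whose mature RNAs target Hox messages such as Hoxb8 in mice. Mir196a-1 in the Hoxb cluster had its peak with TBC1D3, and Mir196b in the Hoxa cluster had one at DIV7 (2.07-fold). Their mature RNAs from RefSeq (GRCm38.p6), with the seed in capitals, share that seed.
mmu-miR-196a-5p, chr11:96265187-96265208, plus strand: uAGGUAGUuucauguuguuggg
mmu-miR-196b-5p, chr6:52230129-52230150, minus strand: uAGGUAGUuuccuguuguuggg
Mir10a, Mir10b, Mir196a-2, Mir615, Hotairm1, Hoxaas2 and Hoxaas3 had no summit within 1 kb of an end in any list.

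Most places with a peak in the clusters were held by 1 list, as in the whole genome. Overlaps between pairs of lists lay above the share of all peaks for some pairs and below it for others. The 141 peaks of the 4 lists inside the clusters merged into 127 separate regions, of which 114 (89.8%) came from 1 list, 12 from 2 and 1 (0.787%) from 3. Merged the same way over all chromosomes, 87.8% of regions came from 1 list, 1.77% from 3 and 0.412% from all 4. The region of 3 lists lay in Hoxa6, on chromosome 6 from 52205371 to 52206142, with peaks of TBC1D3, MICAL1-M1 and DIV7. The TBC1D3 peak overlapped the other peaks, while the MICAL1-M1 and DIV7 peaks did not overlap each other, so no base was common to all 3. Of the 78 TBC1D3 peaks 8 (10.3%) were overlapped by a DIV7 peak by at least 1 bp, against 9.32% of all TBC1D3 peaks, and these were 18.6% of the 43 DIV7 peaks, against 8.68% of all DIV7 peaks. TBC1D3 peaks overlapped 4 of the 16 MICAL1-M1 peaks (25.0%, against 12.2% of all MICAL1-M1 peaks). MICAL1-M1 peaks overlapped 4 of the 78 TBC1D3 peaks (5.13%, against 8.81% of all TBC1D3 peaks). Control peaks overlapped 1 of the 78 TBC1D3 peaks (1.28%, against 6.34% of all TBC1D3 peaks). They overlapped 0 of the 16 MICAL1-M1 peaks (against 15.8%) and 0 of the 43 DIV7 peaks (against 5.65%). Differences from these shares were not tested. The caller's local background exceeded the genome level by more than 1% at 18 of 78 cluster peaks with TBC1D3, 4 of 16 with MICAL1-M1, 18 of 43 at DIV7 and 4 of 4 in the control, against 21.0%, 21.7%, 25.1% and 35.8% of all peaks; the part of this background in the low control counts was not tested.

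Genes of the machinery that keeps Hox clusters on or off were counted beside them. Subunits and partners of Polycomb complex PRC2, which writes the repressive methyl mark, were occupied in 3 of 11 cases with TBC1D3, 8 with MICAL1-M1, 2 at DIV7 and 8 in the control. Ezh2, its methyltransferase, had 3.30-fold with MICAL1-M1 (q = 0.116) and 3.07-fold in the control (q = 0.112). Phf1 and Mtf2, which help to bring PRC2 to its targets, had 3.11-fold (q = 0.0687) and 3.08-fold (q = 0.0541) in the control. Genes of PRC1, of which some forms read that mark, were occupied in 10 of 18 cases with TBC1D3, 13 with MICAL1-M1, 9 at DIV7 and 13 in the control. Genes of the MLL complexes and partners, which keep Hox genes active, were occupied in 2, 5, 4 and 7 of 11 cases in that order of libraries. The TALE cofactors Pbx, Meis and Pknox, which bind DNA with HOX proteins, were occupied in 3, 4, 4 and 5 of 9 cases. Boundary factors of the CTCF and cohesin group were occupied in 3, 5, 1 and 3 of 9 cases. The ParaHox, Cdx and Evx homeobox genes, relatives of the Hox genes outside or beside the clusters, were occupied in 4, 4, 3 and 2 of 8 cases. Beside the shares of all genes, 33.4%, 38.7%, 33.2% and 42.3%, these are descriptions of single libraries. By the strongest peak of a gene, a q of at most 0.05 was reached in the control and with MICAL1-M1 only. In the control these were Phc2 (5.04-fold, q = 1.57e-06), Rybp (q = 0.00229), Cbx8 (q = 0.00457) and Pcgf1 (q = 0.0117) of PRC1. The others were Kmt2a (q = 0.00474), Wdr5 and Rbbp5 (q = 0.00701 each) and the boundary gene Zfp143 (q = 0.0273). With MICAL1-M1 they were Phc2 (q = 0.00689) and Phc3 (q = 0.0335).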

How the data were processed

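ATRX ChIP-seq peak lists of 4 libraries were used; the input DNA sample was not analysed here. The tools named, without roles, per the submitters' processing notes were ChIPseeker 1.26.2, MACS 1.4.2, Bowtie 1.3.0 and SAMtools 1.9; the genome build is not given in the sources used here, and which caller made the lists is uncertain. Each deposited list, without header, follows the narrowPeak layout and belongs to 1 library. The authors' score equals the deposited -log10 p multiplied by 10, decimals dropped, the deposited fold is a ratio to local background, the deposited -log10 values are those of p and q, and the last column gives the summit. The largest p in each list was about 0.05, so lists are not corrected for multiple testing.

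Gene positions came from RefSeq GRCm38.p6; as a check of the build, summit density at gene ends exceeded that 20 kb off for 20 or 21 of the 21 chromosomes. Pileup and background were solved from fold and p, with a Poisson p and 1 added to pileup and to background in the fold. A whole pileup matched 99.97% to 99.99% of peaks (tolerance 0.001 in log10 p). Read totals were not analysed here. Tools were Python 3.11.15, pandas 2.3.3 and scipy 1.17.1, tested on simulated data. Intervals at 95% cover counting error only. The members and lists were chosen with earlier results of these data known. The naming rule took Hox genes occupied in 3 or 4 lists, the 2 of highest fold per library and those occupied in 0 lists; the other occupied Hox genes were named after their values were seen. Counts cover all 39 genes, of which 1 is not reported here by itself.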

Additional observations from a re-analysis of the deposited data

How the results depend on the processing

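Of 92 alternative values for 18 counts, 32 stayed within 1.5 times the reported count. Values follow in the order TBC1D3, MICAL1-M1, mCherry at DIV7 and the mCherry control at DIV14. In a 3 kb window 29, 12, 25 and 5 of 39 Hox genes were occupied, against 57.7%, 53.2%, 59.3% and 53.0% of all genes; peaks numbered 50, 10, 35 and 3. At 500 bp 11, 2, 8 and 2 genes were occupied (20.4%, 26.8%, 20.6% and 31.9% of all genes), on 12, 2, 9 and 2 peaks. Counting any base of the peak gave 20, 6, 16 and 3 genes (36.9%, 42.3%, 37.0% and 45.7%). At a p of at most 0.01 there were 11, 3, 7 and 0 genes (24.4%, 30.6%, 15.2% and 36.8%), on 12, 3, 8 and 0 peaks, and 108, 21, 34 and 10 summits in clusters and flanks. At a q of at most 0.05 no Hox gene was occupied in any list (0, 0, 0 and 0; 0.146%, 1.33%, 0.228% and 8.47% of all genes), with 0, 0, 0 and 1 summits in clusters and flanks. Lists of equal size gave 8, 3, 8 and 3 genes on 7, 3, 9 and 2 peaks, and 73, 28, 40 and 17 summits. Many peaks tie in p at that size: without the tied peaks 6, 3, 7 and 3 genes were occupied (15.1%, 32.6%, 15.2% and 42.3% of all genes) and with all of them 9, 3, 10 and 3 (22.3%, 35.2%, 23.3% and 42.3%), settings chosen after seeing the data. At transcription starts alone 6, 2, 10 and 1 of 22 genes were occupied (24.3%, 34.6%, 24.2% and 39.7% of all genes with a known strand). The flanks excluded, 78, 16, 43 and 4 summits remained of 153, 43, 92 and 17.

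Gained Hox genes numbered 24 with TBC1D3, 10 with MICAL1-M1 and 22 at DIV7 in a 3 kb window (61.5%, 25.6% and 56.4%, against 21.8%, 12.4% and 23.3% of all genes). With lists of equal size they numbered 7, 3 and 7 (17.9%, 7.69% and 17.9%, against 8.42%, 9.17% and 8.0%). These are shares of all genes, free in the control or not, and a larger part of the Hox genes was free. The control occupied 12.8% of Hox genes against 53.0% of all genes in the 3 kb window, and 7.69% against 42.3% with lists of equal size. The gained shares of Hox genes and of all genes are thus not directly comparable. Lost genes numbered 0 with TBC1D3 and 2 at DIV7 in a 3 kb window, 2 at DIV7 with lists of equal size, and 3 at DIV7 where a gene counted as lost when no DIV7 peak overlapped its control peak, by 1 bp or by 50% of the shorter peak. In the control and with MICAL1-M1 the occupied share of Hox genes stayed below that of all genes under each of these settings. The gained share with MICAL1-M1 did not, but it counts genes that the control already held. Of the genes free in the control, at the reported setting, MICAL1-M1 gained 13.9% of Hox genes against 20.1% of all genes. With TBC1D3 and at DIV7 the occupied share lay above or near that share, except at a q of at most 0.05, where 0 Hox genes were left. The cause of these shifts was not tested. The order of libraries in a single Hox gene is limited by summits of 3 to 10 fragments. No paired analysis was possible because each group has 1 library.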
